A study of Mus musculus with 8 samples.

Results

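The enzymes described here make the building blocks of DNA and the pyrimidine nucleotides. They are 9 genes named by their function and not by a measured value: *Rrm1*, *Rrm2* and *Rrm2b* (ribonucleotide reductase), *Tyms*, *Tk1* and *Dut* (thymidylate supply), *Dck* (deoxynucleoside salvage), and *Cad* and *Umps* (pyrimidine synthesis). All 9 were found among the 25428 genes measured, each by 1 probe set. The mean of each over the 8 arrays lay above the level taken as dim, which was the median of all probe sets. Hypoxic lungs came from mice A, B, C and D, kept at 10% oxygen for 7 days, and normoxic lungs from mice F, G, H and I in normoxia. RNA from lung lobe tissue of each mouse was measured on 1 Affymetrix Mouse Gene 2.0 ST array. All 8 mice had the genotype *Nfat5* fl/fl, in which part of the gene for the transcription factor NFAT5 is flanked by loxP sites. According to the methods, this genotype stands for male offspring of a cross with SM-MHC-CreERT2, a smooth muscle Cre that tamoxifen switches on. At an age of 10 to 12 weeks they received only the solvent miglyol, so that *Nfat5* was floxed but not deleted, and they entered experiments after 2 to 3 weeks of recovery.

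Ribonucleotide reductase turns ribonucleoside diphosphates into deoxyribonucleoside diphosphates and is the rate-limiting step of DNA precursor synthesis. Its large subunit RRM1 pairs with RRM2, which is made in S phase and destroyed in mitosis, or with RRM2B, a p53-induced subunit that serves DNA repair and mitochondrial DNA in cells that do not divide. In the adult lung most cells rest, and such cells obtain deoxynucleotides largely through RRM2B and salvage. The question put to the data was whether these enzymes, and which of them, differed between hypoxic and normoxic lungs.

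Values are log2 intensities, on which a difference of 1 is a doubling. Differences are hypoxia minus normoxia with the standard error of limma. This linear model draws the variance of each gene toward a value estimated from all genes. Array medians lay between 4.17 and 4.20. Correlations between arrays were 0.943 to 0.982 within groups and 0.947 to 0.976 between groups, and the lowest was that of the normoxic mice F and I. The alveolar type 2 markers averaged 10.40 to 10.61 in hypoxic lungs and 10.10 to 10.45 in normoxic lungs, with 0 of 10 dim. Markers of fat and of cardiac muscle differed between the groups. Adipocyte markers averaged 5.58 to 5.84 in hypoxic lungs and 6.24 to 8.07 in normoxic lungs, with only *Lep* dim. All 14 had the lower mean in hypoxia, 12 of them at an unadjusted p under 0.05 (limma), against 3.15% of all probe sets. Cardiac muscle markers averaged 5.75 to 5.90 in hypoxic lungs and 6.14 to 7.08 in normoxic lungs, with only *Myl3* dim. All 12 had the lower mean in hypoxia, 7 of them at that p. Their part in the differences below was not tested. An array of lung tissue cannot tell fewer cells of a type and less RNA per cell apart.

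The promoters of the 2 genes with the largest differences among the enzymes are shown because both carry letters of cell cycle control elements. They are the 250 bases before the annotated start in RefSeq (GRCm38.p6), on the plus strand, at chr7:102441445-102441694 for *Rrm1* and chr12:24708004-24708253 for *Rrm2*. Capitals mark CCAAT, the CCAAT box that NF-Y binds in either direction, and the inner letters of sites for E2F, the factor family of S phase genes. These letters were TCCCGC in the first form, TCGCGC in the second form, TGCCGC in the third form and TGGCGC in the fourth form, searched on both strands.
Rrm1: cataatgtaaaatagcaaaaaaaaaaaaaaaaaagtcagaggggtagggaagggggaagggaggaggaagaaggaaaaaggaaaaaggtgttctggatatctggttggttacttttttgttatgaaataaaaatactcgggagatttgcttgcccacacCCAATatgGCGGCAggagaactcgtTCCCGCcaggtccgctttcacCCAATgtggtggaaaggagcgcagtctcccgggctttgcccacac
Rrm2: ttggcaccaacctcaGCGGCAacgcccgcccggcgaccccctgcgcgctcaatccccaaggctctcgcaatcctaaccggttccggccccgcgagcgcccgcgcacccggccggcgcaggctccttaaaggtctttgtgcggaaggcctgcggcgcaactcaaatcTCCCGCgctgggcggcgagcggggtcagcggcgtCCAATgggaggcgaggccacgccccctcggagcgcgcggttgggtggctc

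Counted back from the start, TCCCGC lay at -66 to -61 in *Rrm1* and at -84 to -79 in *Rrm2*. CCAAT lay at -91 to -87 and at -45 to -41 in *Rrm1*, and at -50 to -46 in *Rrm2*. Of 8 enzymes with a promoter in the RefSeq table, *Rrm1*, *Rrm2*, *Tk1*, *Dck*, *Dut*, *Umps* and *Cad* held inner E2F letters, and *Rrm1* and *Rrm2* also held CCAAT. The letters of *Tk1*, *Dut* and *Cad* lay in bases that RefSeq also counts as inside the gene. *Tyms* held the E-box CACGTG, which Myc proteins bind. Among all 32851 promoter windows of the table, 31.1% held inner E2F letters, 33.8% CCAAT, 10.4% both and 6.02% CACGTG. The full E2F letters, in which any of the 4 forms follows TT, were present in 1.86% of windows and in 0 of the 8. These matches describe letters and no binding.

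Of the 9 enzymes, 8 had the higher mean in hypoxic lungs and 1, *Rrm2b*, the lower. The median difference was 0.30, against -0.0049 over all probe sets, of which 49.1% had the higher mean in hypoxia. At an unadjusted p under 0.05 (limma), 2 enzymes were higher in hypoxia, *Rrm1* and *Rrm2*, and 0 were lower, where 5.34% of all probe sets were higher and 3.15% lower. After Benjamini-Hochberg adjustment over all probe sets, 0 of the 9 passed the threshold of 0.05, with adjusted p values of 0.344 to 0.845, and so did 0% of all probe sets, the smallest adjusted p being 0.0551. The per-gene test named in the methods uses the variance of each gene alone. It likewise called 0 enzymes after adjustment and the same 2 enzymes before it, and 0 probe sets in all after adjustment. In none of the 9 did all hypoxic lungs lie on one side of all normoxic lungs, whereas 3.01% of all probe sets lay fully above and 1.61% fully below.

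**Figure D1:**
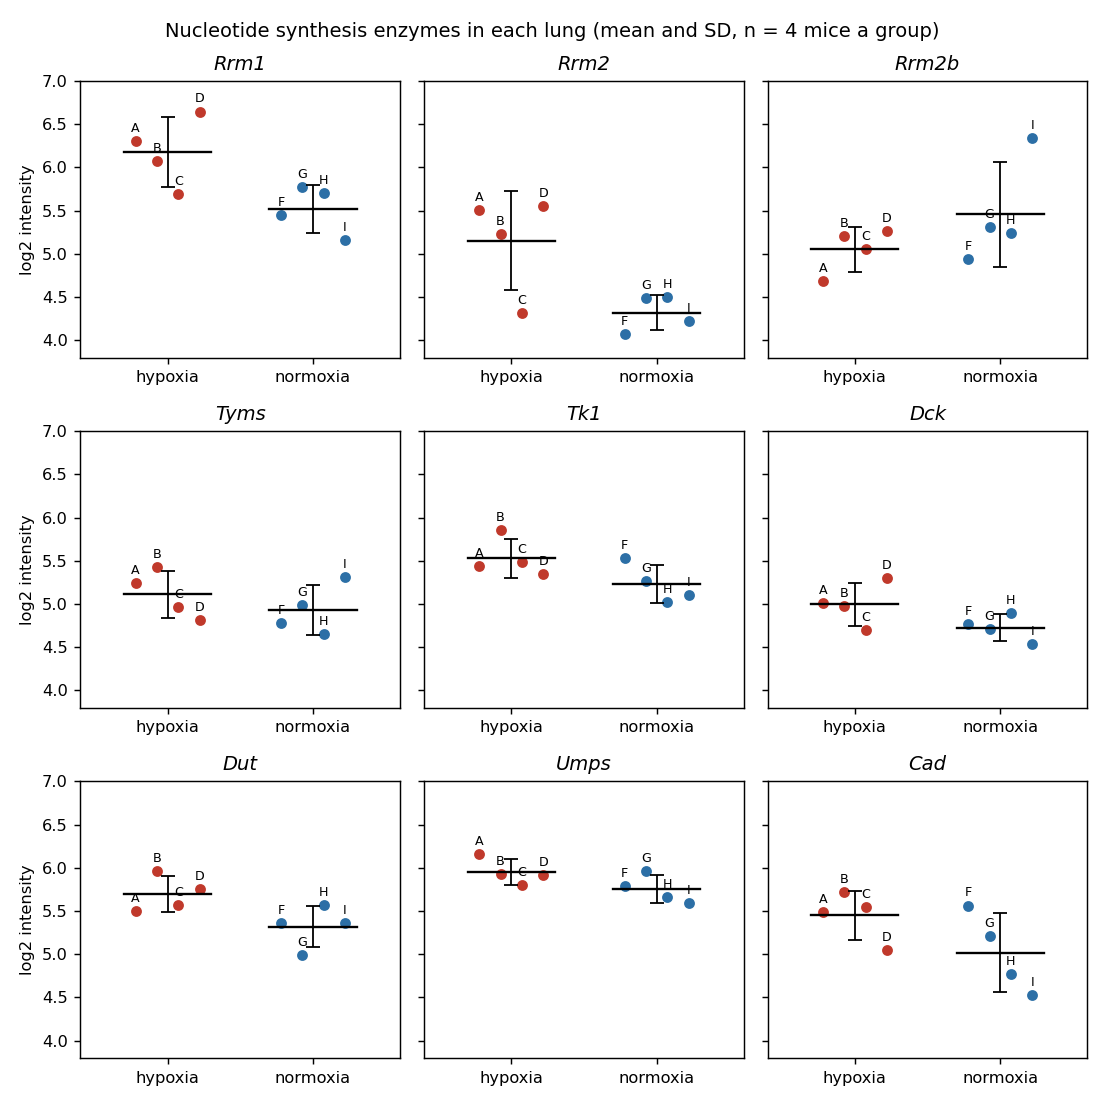
Log2 intensity of each of the 9 enzymes (vertical axis) in each lung, with hypoxic mice A to D in red and normoxic mice F to I in blue; horizontal bars are group means and error bars SD (n = 4). For *Rrm1* and *Rrm2*, hypoxic mice A, B and D lie above all normoxic mice and mouse C lies among them, and *Rrm2b* is highest in normoxic mouse I (6.34).

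*Rrm2* (probe set 20135_at), the S phase subunit, had the largest difference of the 9. It measured 5.50, 5.23, 4.32 and 5.55 in hypoxic mice A, B, C and D, against 4.08, 4.49, 4.50 and 4.23 in normoxic mice F, G, H and I. Hypoxic mice A, B and D lay above every normoxic lung, while mouse C lay within the normoxic range. The value of normoxic mouse F was under the dim level of 4.18. The means were 5.15 ± 0.57 in hypoxia and 4.32 ± 0.20 in normoxia (SD, n = 4 each), a difference of 0.83 (SE 0.26), or 1.78-fold, with a 95% interval of 0.27 to 1.39. The unadjusted p of limma was 0.00775 and the adjusted p 0.344. An exact two-sided permutation test over the 70 assignments of the mice gave p = 0.0857, where 0.0286 is the smallest it can give. Without hypoxic mouse C the difference was 1.11 and the adjusted p of limma 0.0591. Leaving out any other mouse gave differences of 0.69 to 0.89 and adjusted p values of 0.301 to 0.851 (limma).

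*Rrm1* (20133_at), the catalytic large subunit, showed the same order of the hypoxic mice as *Rrm2*. Its values were 6.31, 6.07, 5.69 and 6.65 in hypoxic mice A to D, against 5.45, 5.77, 5.71 and 5.16 in normoxic mice F to I. Mouse C was again the hypoxic lung that overlapped the normoxic ones. *Rrm1* averaged 6.18 ± 0.40 in hypoxia and 5.52 ± 0.28 in normoxia (SD, n = 4 each), which differ by 0.66 (SE 0.22), or 1.58-fold, with a 95% interval of 0.18 to 1.14. Its unadjusted p was 0.0120 and its adjusted p 0.401 with limma, and its exact permutation p was 0.0857.

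*Rrm2b* (382985_at) was the only enzyme of the 9 with a lower mean in hypoxia. It measured 4.68, 5.21, 5.05 and 5.26 in hypoxic mice A to D, against 4.94, 5.32, 5.24 and 6.34 in normoxic mice F to I. The groups overlapped, and normoxic mouse I stood above all other lungs. The difference was -0.41 (SE 0.27, 95% interval -1.01 to 0.19, adjusted p = 0.740 with limma), and -0.12 without mouse I.

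The balance between the replicative and the resting subunit can be read within each mouse, where a shared shift of an array cancels. The level of such a ratio depends on the probes, so that only its difference between groups is informative. The log2 ratio of *Rrm2* over *Rrm2b* was 0.82, 0.02, -0.73 and 0.29 in hypoxic mice A to D, against -0.86, -0.83, -0.75 and -2.11 in normoxic mice F to I. All hypoxic lungs lay above all normoxic lungs, although mouse C exceeded mouse H by little. The ratio was higher in hypoxia by 1.24 (exact two-sided permutation p = 0.0286, the smallest possible, and 0.143 adjusted over the 5 ratios examined). The difference was 0.91 without normoxic mouse I and 1.51 without hypoxic mouse C. These ratios were chosen with the differences of the enzymes known. The ratio of *Rrm2* over *Rrm1* differed by 0.17 between hypoxia and normoxia (exact permutation p = 0.343), with 0.10 to 0.29 when each mouse was left out.

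**Figure D2:**
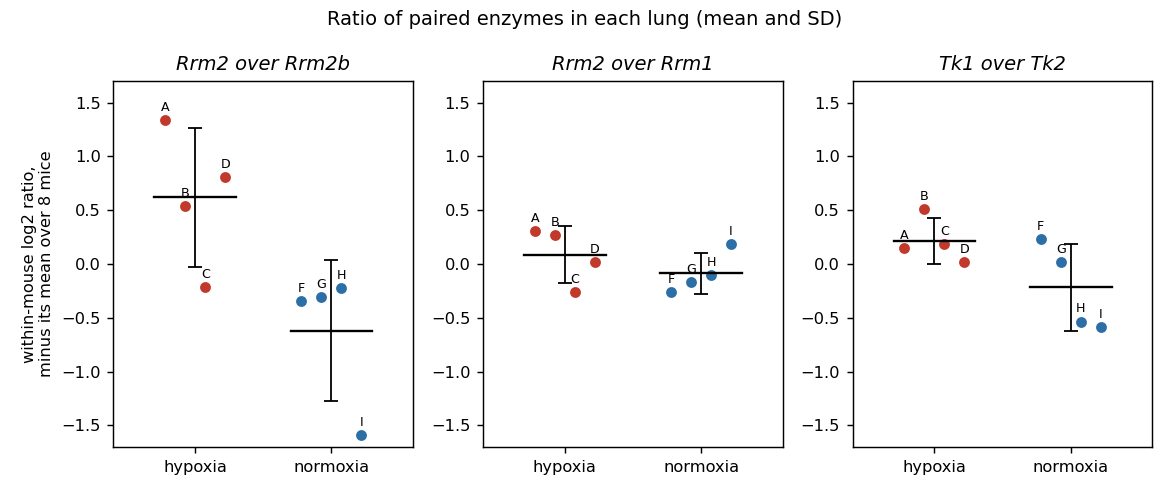
Log2 ratio of paired enzymes within each mouse, minus its mean over the 8 mice (vertical axis), in hypoxic mice A to D (red) and normoxic mice F to I (blue), with the mean and SD. *Rrm2* over *Rrm2b* separates the groups, with hypoxic mouse C close to normoxic mouse H and normoxic mouse I far below, whereas *Rrm2* over *Rrm1* and *Tk1* over *Tk2* overlap.

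The thymidylate enzymes had smaller differences. *Dut* (110074_at) encodes dUTPase, which keeps uracil out of DNA and yields the dUMP that thymidylate synthase uses. It measured 5.50, 5.96, 5.57 and 5.75 in hypoxic mice A to D, against 5.36, 4.99, 5.57 and 5.36 in normoxic mice F to I. Hypoxic mouse A alone lay clearly within the normoxic range, mouse C being level with normoxic mouse H. The difference was 0.38 (SE 0.17), with an adjusted p of 0.588 (limma) and an exact permutation p of 0.0571.

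*Tk1* (21877_at), the cytosolic thymidine kinase of dividing cells, measured 5.43, 5.86, 5.49 and 5.35 in hypoxic mice A to D, against 5.53, 5.27, 5.02 and 5.11 in normoxic mice F to I. Normoxic mouse F lay among the hypoxic lungs. The difference was 0.30 (SE 0.17, adjusted p = 0.688 with limma), with 0.19 without hypoxic mouse B and 0.40 without mouse F. *Tyms* (22171_at), thymidylate synthase, measured 5.25, 5.42, 4.97 and 4.82 in hypoxic mice A to D, against 4.78, 4.99, 4.66 and 5.31 in normoxic mice F to I. Its difference of 0.18 (SE 0.19, adjusted p = 0.845 with limma) was the smallest in size of the 9, and the groups overlapped over most of their range. It was 0.08 without hypoxic mouse B and 0.31 without normoxic mouse I. The within-mouse log2 ratio of *Tk1* over *Tyms* differed by 0.12 between hypoxia and normoxia (exact permutation p = 0.629).

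*Dck* (13178_at), the kinase that salvages deoxycytidine and purine deoxynucleosides, measured 5.01, 4.97, 4.70 and 5.30 in hypoxic mice A to D, against 4.77, 4.71, 4.90 and 4.53 in normoxic mice F to I. As for *Rrm1* and *Rrm2*, mice A, B and D lay above all normoxic lungs and mouse C did not. The difference was 0.27 (SE 0.17), with an adjusted p of 0.711 (limma) and an exact permutation p of 0.114, and was 0.17 without hypoxic mouse D.

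*Cad* (69719_at) encodes the multifunctional enzyme of the first 3 steps of pyrimidine synthesis. It measured 5.48, 5.72, 5.55 and 5.04 in hypoxic mice A to D, against 5.56, 5.21, 4.77 and 4.53 in normoxic mice F to I. Hypoxic mouse D lay below normoxic mice F and G. The difference was 0.43 (SE 0.24, adjusted p = 0.674 with limma), with 0.27 without normoxic mouse I and 0.61 without normoxic mouse F. *Umps* (22247_at), which completes UMP, measured 6.15, 5.93, 5.81 and 5.91 in hypoxic mice A to D, against 5.79, 5.96, 5.66 and 5.59 in normoxic mice F to I. Only hypoxic mouse A exceeded all normoxic lungs, and the difference was 0.20 (SE 0.15, adjusted p = 0.770 with limma), or 0.13 without that mouse.

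The enzymes did not share one order of mice. Hypoxic mice B and D each held the highest value of their group for 4 enzymes, and mouse C for 0. Mouse C held the lowest value for 4, among them *Rrm1*, *Rrm2* and *Dck*. With the group means removed, *Rrm1* correlated over the 8 mice with *Rrm2* (r = 0.846) and *Dck* (r = 0.914), and *Tk1* with *Cad* (r = 0.845), while *Rrm2* and *Tk1* had r = -0.238. The genes whose pattern was most like that of *Rrm2* were *Depdc1a*, a mitotic gene (r = 0.996), *Fbp1*, fructose bisphosphatase (0.977), *Dbf4*, the activator of the replication kinase CDC7 (0.977), *4930509J09Rik* (0.968) and *Neil3*, a DNA glycosylase of S phase cells (0.964). All 5 were dim, with a mean over the 8 arrays under 4.18. These correlations are descriptions over 8 arrays, each of lung tissue with all its cell types. The 5 genes were picked as those of highest r with *Rrm2* among the 25269 probe sets with a symbol. *Depdc1a* measured 3.56, 3.27, 2.50 and 3.60 in hypoxic mice A to D, against 2.15, 2.57, 2.62 and 2.29 in normoxic mice F to I. Mouse C lay inside the normoxic range, which follows from the choice of this gene by its likeness to *Rrm2*.

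For the genes that act directly on the substrates or products of these 9, differences lay between -0.19 and 0.55. *Dhodh*, the mitochondrial step between *Cad* and *Umps*, differed by 0.32 (SE 0.23), *Ctps*, which makes CTP, by 0.31 (SE 0.18), and the uridine kinase *Uck2* by 0.19 (SE 0.20). Around thymidylate, *Dtymk* differed by 0.25 (SE 0.19), *Dctd*, which supplies dUMP from dCMP, by 0.17 (SE 0.16) and *Shmt1* by 0.01 (SE 0.15). The mitochondrial salvage kinases *Tk2* and *Dguok* differed by -0.13 (SE 0.15) and 0.02 (SE 0.15). *Samhd1*, which degrades dNTPs, differed by -0.19 (SE 0.19). Several of these differences were smaller without 1 mouse. Without normoxic mouse I, *Dhodh* differed by 0.11, *Dtymk* by 0.10 and *Tk2* by -0.051. *Uck2* differed by 0.060 without normoxic mouse G, *Dctd* by 0.092 without hypoxic mouse B and *Samhd1* by -0.054 without normoxic mouse H. For the nucleoside transporter *Slc29a1*, values were 7.91, 8.01, 7.77 and 7.21 in hypoxic mice A to D, against 7.49, 7.43, 6.90 and 6.85 in normoxic mice F to I, a difference of 0.55 (SE 0.22, unadjusted p = 0.0281, adjusted p = 0.506 with limma). It was the only one of these 10 with an unadjusted p under 0.05 (limma). Of all probe sets, 5.34% were higher and 3.15% lower in hypoxia at that p. Within mice, *Tk1* over *Tk2* differed by 0.43 and *Dck* over *Dguok* by 0.25 (exact permutation p = 0.2 each).

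**Figure D3:**
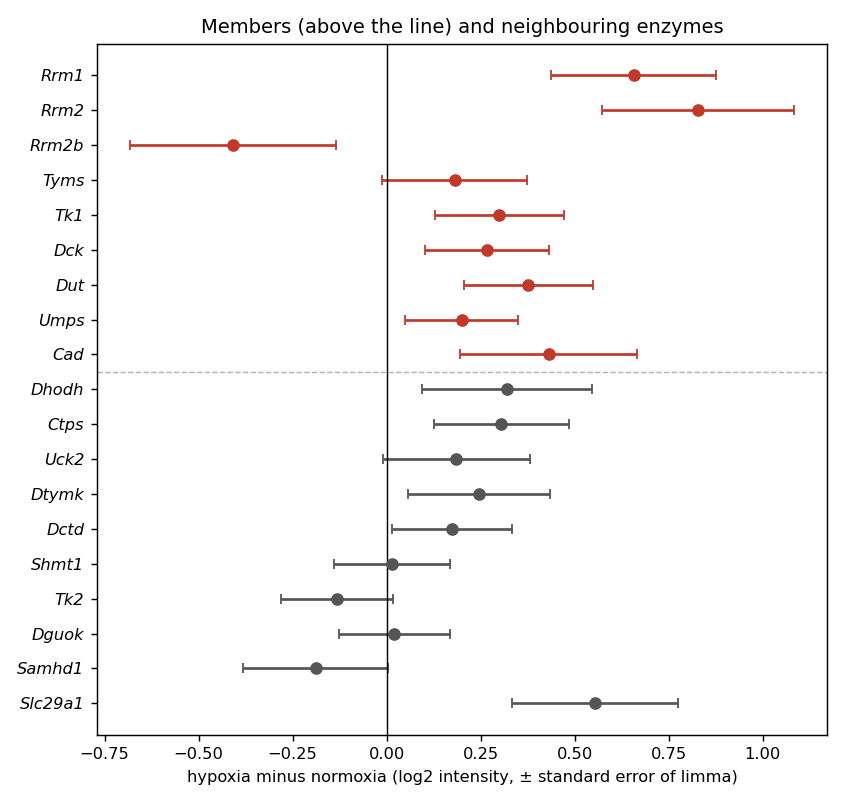
Difference of hypoxia minus normoxia in log2 intensity (horizontal axis) with the standard error of limma for the 9 enzymes (red, above the dashed line) and 10 enzymes and transporters next to them (grey). *Rrm1* and *Rrm2* lie farthest to the right (0.66 and 0.83), and *Rrm2b* (-0.41) lies farthest to the left.

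Among 28 further pyrimidine enzymes and nucleotide kinases, 19 had the higher mean in hypoxia and 9 the lower, with a median difference of 0.11. At an unadjusted p under 0.05 (limma), 1 was higher in hypoxia and 0 were lower, against 5.34% and 3.15% of all probe sets. That 1 was *Nme6*, a nucleoside diphosphate kinase, which measured 4.47, 4.43, 4.01 and 3.60 in hypoxic mice A to D, against 3.48, 3.46, 3.43 and 3.31 in normoxic mice F to I, at a dim level but without overlap. *Ak7* differed by 0.50 (SE 0.25), or 0.31 without hypoxic mouse D, and *Uckl1* by 0.22 (SE 0.15). Of 21 purine synthesis and salvage genes, 13 had the higher mean in hypoxia and 8 the lower, with a median of 0.11, and at that p 3 were higher and 0 lower. *Ampd2*, AMP deaminase, differed by 0.63 (SE 0.17, adjusted p = 0.252 with limma) and *Impdh1*, the first step toward GMP, by 0.59 (SE 0.17, adjusted p = 0.321), both without overlap of the groups. *Prpsap1* differed by 0.48 (SE 0.21) and *Adss* by -0.38 (SE 0.19).

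Of 22 folate and one-carbon genes, 12 had the higher mean in hypoxia and 10 the lower, with a median of 0.02. At an unadjusted p under 0.05 (limma), 2 were higher and 1 lower, against 5.34% and 3.15% of all probe sets. *Mthfd2*, the mitochondrial folate enzyme of dividing cells, measured 6.05, 5.21, 4.92 and 5.26 in hypoxic mice A to D, against 4.66, 4.46, 4.71 and 3.09 in normoxic mice F to I. Its groups did not overlap, and normoxic mouse I was far below the rest. The difference was 1.13 (SE 0.35, adjusted p = 0.355 with limma), and 0.75 without mouse I. *Shmt2*, the mitochondrial serine hydroxymethyltransferase, differed by 0.75 (SE 0.34), or 0.39 without normoxic mouse I. *Amt* differed by 0.28 (SE 0.17), or 0.17 without hypoxic mouse C. *Ggh*, which trims folate polyglutamates, differed by -0.73 (SE 0.29), or -0.43 without normoxic mouse F. Of 30 genes of nucleotide breakdown and nucleoside transport, 13 had the higher mean in hypoxia and 17 the lower, with a median of -0.03, and at that p 3 were higher and 0 lower. Beside *Slc29a1* these were *Itpa* (0.42, SE 0.15) and *Upp1*, uridine phosphorylase (0.57, SE 0.22), while *Cda* differed by 0.45 (SE 0.22).

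Genes of DNA replication itself run in the same phase of the cell cycle as ribonucleotide reductase. Of 48 S phase replication genes, 19 were higher in hypoxia at an unadjusted p under 0.05 (limma) and 0 lower, against 5.34% and 3.15% of all probe sets. In 16 of them all hypoxic lungs lay above all normoxic lungs, against 3.01% of all probe sets, and the median difference was 0.39. *Mcm2*, a subunit of the replicative helicase, measured 6.39, 6.67, 6.40 and 6.47 in hypoxic mice A to D, against 5.59, 5.62, 5.20 and 4.29 in normoxic mice F to I. *Mcm7* differed by 1.06 (SE 0.21), the histone chaperone *Asf1b* by 1.18 (SE 0.21, adjusted p = 0.0910 with limma) and the DNA ligase *Lig1* by 0.98 (SE 0.20). Mouse C, whose *Rrm1* and *Rrm2* were at the normoxic level, lay with the other hypoxic lungs in *Mcm2*. The list mean was 5.35, 5.27, 4.92 and 5.07 in hypoxic mice A to D, against 4.78, 4.80, 4.72 and 4.51 in normoxic mice F to I, so that mouse C was the lowest hypoxic lung but above every normoxic one.

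Of 34 genes of G2 and M phase, all 34 had the higher mean in hypoxia, with a median difference of 1.29. At an unadjusted p under 0.05 (limma), 31 were higher and 0 lower, against 5.34% and 3.15% of all probe sets, and 25 lay fully above normoxia and 0 fully below, against 3.01% and 1.61%. *Aurka*, a spindle kinase, differed by 1.84 (SE 0.24), *Ccnb2*, cyclin B2, by 2.13 (SE 0.29), the ubiquitin enzyme *Ube2c* by 2.07 (SE 0.30) and *Ect2*, which acts in cytokinesis, by 2.16 (SE 0.34). The first 3 had an adjusted p of 0.0551 (limma). The list mean was 5.62, 5.77, 4.54 and 5.44 in hypoxic mice A to D, against 3.91, 4.24, 3.94 and 3.76 in normoxic mice F to I. Mouse C was again the lowest hypoxic lung. Both lists and their direction had been seen in earlier results of these arrays.

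Lists of p53 and Myc genes bear on regulators of these enzymes. Of 24 p53 target genes, the class to which *Rrm2b* belongs, 9 had the higher mean in hypoxia and 15 the lower, with a median of -0.11. At an unadjusted p under 0.05 (limma), 3 were higher and 2 lower, against 5.34% and 3.15% of all probe sets. *Cdkn1a*, the cyclin kinase inhibitor p21, measured 8.73, 9.34, 8.52 and 8.83 in hypoxic mice A to D, against 8.35, 7.95, 7.91 and 7.57 in normoxic mice F to I, and *Sesn2* differed by 0.71 (SE 0.18). Neither gene overlapped between the groups. *Tnfrsf10b* differed by 0.49 (SE 0.18) and *Perp* by -1.10 (SE 0.37), or -0.68 without normoxic mouse F. Of 25 nucleolar and Myc-bound genes, the class to which *Cad* belongs, 14 had the higher mean in hypoxia and 11 the lower, with a median of 0.04. At that p 2 were higher and 0 lower, a share near that of all probe sets. These were the spermidine synthase *Srm* (0.58, SE 0.23, or 0.34 without normoxic mouse I) and *Cdk4* (0.32, SE 0.14), while *Polr1b* differed by 0.33 (SE 0.16) and *Fbl* by -0.58 (SE 0.31), or -0.31 without normoxic mouse F. After adjustment over all probe sets, 0 genes of any of these 8 lists passed (limma).

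**Figure D4:**
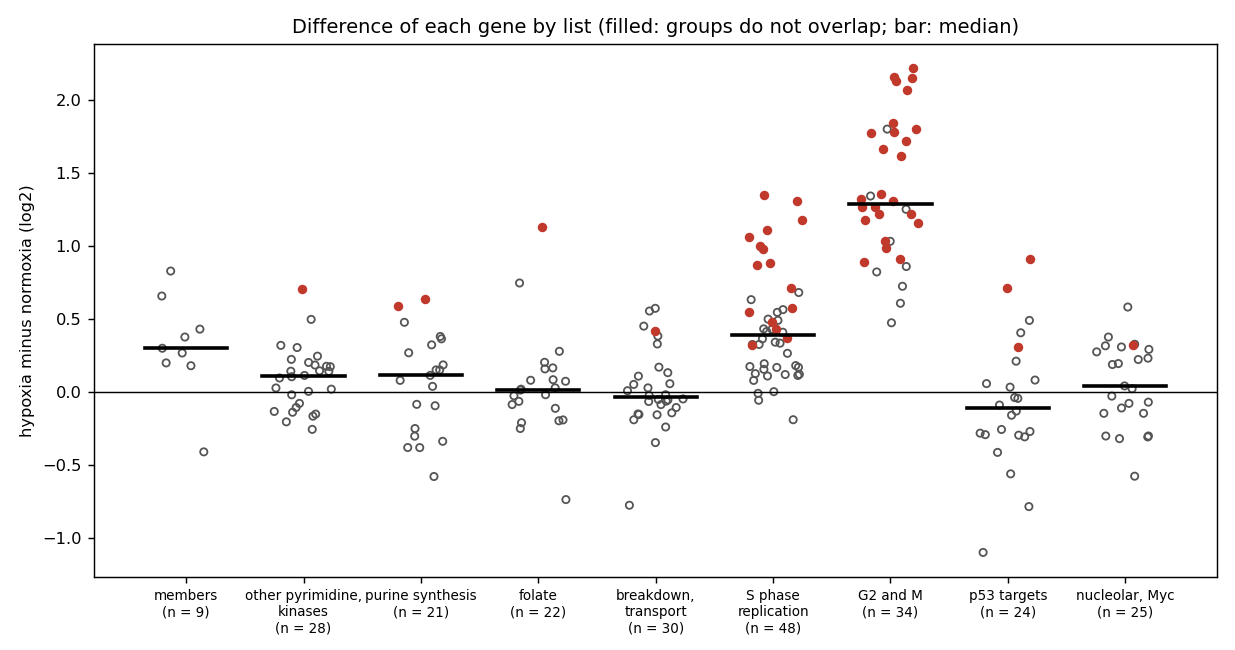
Difference of hypoxia minus normoxia in log2 intensity (vertical axis) for each measured gene of the 9 enzymes and the 8 pathway lists (horizontal axis); filled points mark genes whose groups do not overlap and bars the median of each list. The medians are 0.30 for the enzymes, 0.39 for S phase genes and 1.29 for G2 and M phase genes, and lie between -0.11 and 0.11 for the other 6 lists.

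Other cell types of the lung tissue that could carry these transcripts were read from marker lists. Counts of markers that were higher or lower are those at an unadjusted p under 0.05 (limma), against 5.34% and 3.15% of all probe sets. Erythroid precursor markers, of cells that divide, averaged 3.98 to 4.44 in hypoxic lungs and 3.89 to 4.09 in normoxic lungs. At that p 2 of 13 were higher and 0 lower, 11 of 13 had the higher mean in hypoxia, and 9 of 13 were dim. Smooth muscle and pericyte markers averaged 6.81 to 7.48 in hypoxic lungs and 6.46 to 7.12 in normoxic lungs, with 5 of 10 higher and 0 lower at that p and 8 of 10 with the higher mean in hypoxia. Macrophage markers averaged 6.64 to 7.02 in hypoxic lungs and 6.46 to 6.78 in normoxic lungs, with 3 of 11 higher and 0 lower at that p and 8 of 11 with the higher mean in hypoxia. Fibroblast markers averaged 7.67 to 8.09 in hypoxic lungs and 7.53 to 7.82 in normoxic lungs, with 3 of 9 higher and 1 lower at that p. Endothelial markers averaged 8.70 to 8.98 in hypoxic lungs and 8.77 to 9.03 in normoxic lungs, with 2 of 15 higher and 2 lower at that p. B and plasma cell markers averaged 5.45 to 6.12 in hypoxic lungs and 5.95 to 7.51 in normoxic lungs. At that p 4 of 10 were lower and 0 higher, and all 10 had the lower mean in hypoxia. Skeletal muscle markers averaged 3.97 to 4.91 in hypoxic lungs and 3.98 to 7.17 in normoxic lungs. At that p 6 of 12 were lower and 0 higher, and all 12 had the lower mean in hypoxia. The list mean was 7.17 and 7.03 in normoxic mice F and G. In normoxic mice H and I it was 3.98 and 4.58, within the hypoxic range. For T cells, neutrophils, alveolar type 1 cells and airway epithelium, at most 1 marker of each list was higher and at most 1 lower at that p. In which of these cells the nucleotide enzymes differed was not tested.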

How the data were processed

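The authors deposited log2 intensities, made with RMA (submitters' processing notes), quantile normalization and a custom chip definition (version 22) of 1 probe set per Entrez gene. How background was corrected, and which arrays were normalized jointly, is not given in the sources used here. Mouse F has values with more decimal steps than the others and was kept. Without read depth, the number of arrays limits the precision. Of 25428 probe sets, 25269 carried a symbol, 24705 by the platform's annotation and the rest by Entrez ID in RefSeq.

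Hypoxia minus normoxia was fitted over all probe sets with limma (version 3.58.1, R 4.3.3), with Benjamini-Hochberg adjustment and a threshold of 0.05. The one-way ANOVA named in the methods was run as an alternative. The fit was tested on simulated data. Single genes and ratios were also compared with the exact permutation test (scipy 1.17.1). Probe sets with a mean over all arrays under 4.18, the median of all probe sets, were called dim. This is no limit of detection. P-values measure the spread between mice, which nothing in the labels pairs.

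The enzymes and lists were chosen with earlier results of these data known. Named genes are all 9 enzymes, 10 genes next to them, and, from each of the 8 pathway lists, the 4 genes of smallest p. Of the genes this rule takes, 1 is not reported here. The 5 ratios and the promoter letters were chosen later, the inner E2F letters after a first search of the windows. RefSeq promoter windows (GRCm38.p6) matched 8 of the 9 by symbol. The fit was repeated after a second quantile normalization, after median centring, without dim probe sets, with a trended robust variance, with array weights and without each mouse in turn.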

Additional observations from a re-analysis of the deposited data

Results flagged for a closer look

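In 120 groups of 4 mice, from the named genes and the ratios, 1 mouse stood apart from the other 3 of its group in 4 cases, by Dixon's criterion (95% critical value). Chance gives about 1 in 20 such groups. None of them was a group of the 9 enzymes themselves.

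The log2 ratio of *Rrm2* over *Rrm2b* was -2.11 in normoxic mouse I, against -0.86 to -0.75 in the other normoxic mice, and the difference between hypoxia and normoxia was 0.91 without this mouse. *Mthfd2* measured 3.09 in normoxic mouse I, against 4.46 to 4.71 in the others. *Mcm7* measured 4.62 in normoxic mouse I, against 5.24 to 5.35 in the others. *Ect2* measured 5.32 in hypoxic mouse C, against 6.53 to 6.65 in the others.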

How the results depend on the processing

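Of 1716 values recomputed under the alternatives, 1587 kept their direction and their side of the threshold or stayed near the first value. Of the rest, 18 gained significance, 0 lost it, 102 moved and 9 changed sign. None could lose it, because 0 probe sets passed the adjusted threshold in the first fit. In every setting 8 of the 9 enzymes had the higher mean in hypoxia and 0 passed the adjusted threshold, and the 18 gains were in *Asf1b*, *Ccnb2*, *Aurka*, *Ube2c* and *Ect2*. The number of enzymes higher at an unadjusted p under 0.05 ranged over 2 to 4 when each mouse was left out, with 4 without normoxic mouse F (*Rrm1*, *Rrm2*, *Tk1* and *Cad*). Over all probe sets, 53 passed the adjusted threshold without dim probe sets, 12 with the other variance model and 22 with array weights. Leaving out each mouse gave 0 to 33, with 33 without hypoxic mouse C, 23 without normoxic mouse G and 14 without normoxic mouse H. Leaving out dim probe sets tests fewer genes and also estimates the variance anew. The cause of these shifts was not tested. For list medians, a change of sign was counted only where the shift was at least the SD between mice of a group. The values counted had been near 0. *Dguok* had -0.019 with array weights and -0.059 to 0.073 when each mouse was left out, *Shmt1* -0.081 to 0.10, the median of the fibroblast markers -0.080 to 0.18 and the ratio of *Tk1* over *Tyms* -0.047 to 0.27. The median of the neutrophil markers was 0.60 without dim probe sets. Leaving out mice for the ratios was added after seeing the data. No paired analysis was possible because the letters name separate mice in the 2 groups.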
